A study of Enchytraeus albidus with 15 samples.

Results

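Transcript levels were compared between adult Enchytraeus albidus kept in soil with silver nitrate (AgNO3) at 100 mg/kg and adults kept in clean soil. Enchytraeus albidus, the white potworm, is a small segmented worm that lives in soil and litter. The comparison used the 6 arrays labelled as these groups, 3 with AgNO3 and 3 controls, of 15 in the series. The other 9 arrays held AgNO3 at 200 mg/kg and silver nanoparticles (Ag-NP) at 100 and 200 mg/kg, and they entered the fit too, where they add to the estimate of the spread between replicates and give the contrasts between silver groups. The worms of every group, controls included, had a developed clitellum, the glandular band of mature animals, and spent 2 days at 20 °C in vessels of 10 worms with 25 g of moist OECD soil, an artificial soil used in standard toxicity tests. The labels give 3 biological replicates a group, and RNA came from whole bodies, the worms of 1 replicate together. A value therefore averages all tissues of several worms, and a lower level could come from fewer cells of a type or from less RNA per cell, which cannot be told apart. The labels give no strain or source for the worms.

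Silver nitrate is a soluble salt that releases silver ions. Silver ions bind strongly to thiol groups of proteins, and in many animals they are held by metallothioneins and glutathione and disturb ion uptake and redox balance. Worms in spiked soil take up dissolved metal through the skin and by swallowing soil. The arrays carried probes made from clones and assembled contigs of this species, and the files name each probe by its clone or contig only. The files hold no gene name, description or sequence for the probes, so no pathway is named here and results are given for probes.

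Each array carried 1035 probes with 14 or 15 spots each. Spot intensities were put on a log2 scale, averaged per probe and given relative to the array's 75th percentile, so a level of 0 means a probe as bright as that percentile. A probe was taken as measured on an array when at least 0.5 of its spots were well above background. It was compared when this held on all 3 arrays of either group, which gave 432 probes. Another 14 probes reached this mark in another silver group only, and all 446 were fitted and adjusted together. A probe is said to have risen or fallen when its p-value, adjusted by the Benjamini-Hochberg method over the 446, was below 0.05 in limma (lmFit and eBayes, 1 fit of all 15 arrays).

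The 6 arrays differed in brightness and in how many probes they measured. The 75th percentile of the processed signal was 45.3, 33.6 and 18.7 on control replicates 1, 2 and 3, and 19.7, 54.3 and 21.2 on AgNO3 replicates 1, 2 and 3. The bright and the dim arrays were thus spread over both groups, and the means did not differ detectably (exact permutation test over arrays, two-sided, p = 1, where 3 against 3 arrays cannot go below 0.1). Control arrays measured 539, 530 and 280 probes and AgNO3 arrays 455, 589 and 466. Control replicate 3 stood apart with 280, and it was the only 1 of the 6 arrays on slide 3, which was scanned on a later day than slides 1 and 2. The mean was 503 ± 74.4 with AgNO3 and 450 ± 147 in control (SD, n = 3 each, exact permutation p = 0.8).

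Slides carried both groups. Control replicate 1 and AgNO3 replicate 1 lay on slide 1, and control replicate 2 lay on slide 2 with AgNO3 replicates 2 and 3. Each control array occupied the same position on its slide, in row 1 and column 1, and no silver array did, so this position and the clean soil group cannot be told apart.

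The missing probes of control replicate 3 shaped which probes could be compared. Both groups measured 277 probes on all their arrays. A further 155 were measured on all 3 AgNO3 arrays but not on all 3 control arrays, and none showed the opposite. All 155 were unmeasured on control replicate 3, and 145 of them were measured on both other controls. For these probes the clean soil mean rests on at least 1 signal near background, and AgNO3 was the higher group in 118 of them and the lower in 37.

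Against clean soil, AgNO3 at 100 mg/kg changed 13 probes, which is 2.91% of the 446 tested. The number that rose was 11 (2.47%) and the number that fell was 2 (0.448%). The falls were of 8.45-fold and 4.38-fold, and the rises ranged from 2.73-fold to 6.09-fold with a median of 3.23-fold. Of the 11 rises, 6 were among the 155 probes that were compared only because the AgNO3 arrays measured them. With the test kept to the 227 probes measured on all 15 arrays, 5 rose and 4 fell. The falls were also the only calls that passed when slide was a block in the fit. With slide as a random block, chosen after seeing the data, 10 rises and 1 fall passed. Before adjustment 40 probes were higher and 13 lower at p below 0.05 (limma). With no differences 22.3 would be expected in this and any other fit of the 446, though probes on the same arrays are not independent.

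The count of 13 depended on single arrays and on the fit. No probe passed without control replicate 1 or 2, without AgNO3 replicate 1 or 3, or without Ag-NP 200 mg/kg replicate 2, and 1 passed without control replicate 3, which was the fall of P5_D7_T7_1329838. A fit of the 6 arrays alone called none (limma), its lowest adjusted p being 0.0729, and 55 probes reached an unadjusted p below 0.05.

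**Figure D1:**
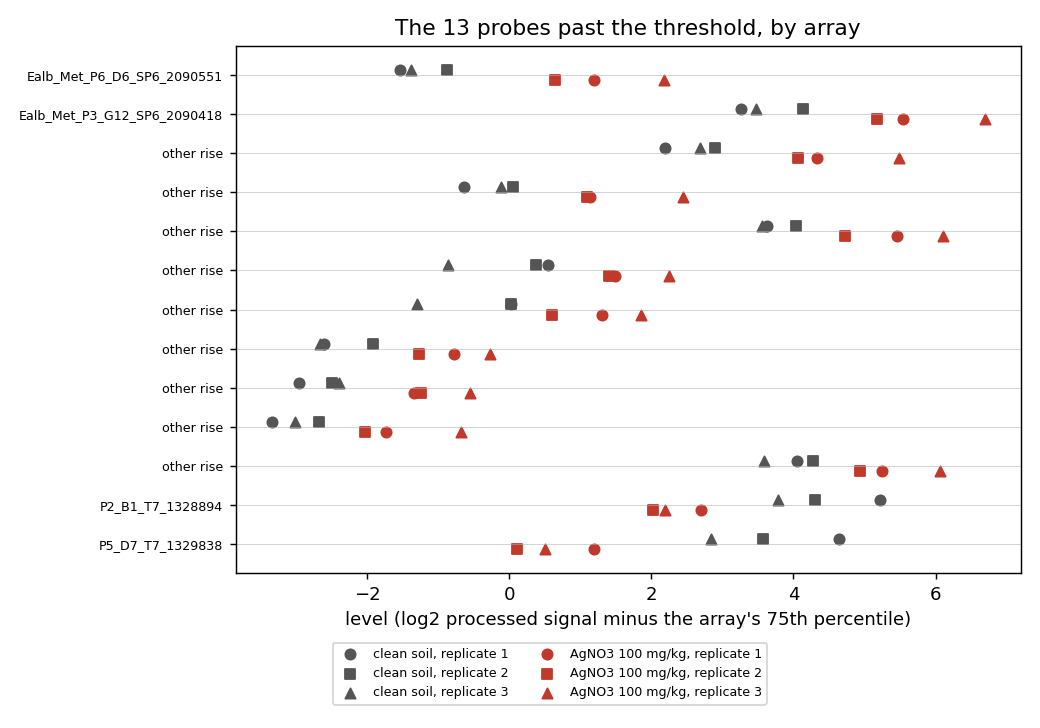
Level of each of the 13 probes past the threshold (rows, ordered by fold change) on the 3 control arrays (grey) and the 3 AgNO3 100 mg/kg arrays (red), as log2 relative to the array's 75th percentile, with the replicate given by the symbol. In every row the groups are apart, and in all 11 rises AgNO3 replicate 3 is the rightmost point.

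The largest change was the fall of P5_D7_T7_1329838, an unprefixed clone probe. Its level was 4.64, 3.56 and 2.84 on control replicates 1, 2 and 3, and 1.19, 0.10 and 0.51 on AgNO3 replicates 1, 2 and 3. The lowest control array stood above the highest AgNO3 array, and the control arrays differed more among themselves than the AgNO3 arrays did. The mean went from 3.68 ± 0.91 to 0.60 ± 0.55 (SD, n = 3 each), a log2 change of -3.08 ± 0.57 (SE, limma adjusted p = 0.0333) or 8.45-fold. The 95% interval of the log2 change ran from -4.29 to -1.87.

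The other fall was P2_B1_T7_1328894, also an unprefixed clone probe. Its level was 5.22, 4.30 and 3.79 on the control arrays and 2.70, 2.02 and 2.20 on the AgNO3 arrays, in order of replicate. The groups did not overlap, with control replicate 1 the highest and AgNO3 replicate 2 the lowest. The mean fell from 4.44 ± 0.73 to 2.30 ± 0.35 (SD, n = 3 each), a log2 change of -2.13 ± 0.48 (SE, limma adjusted p = 0.0363). Both probes were well above background on all 15 arrays and saturated on none.

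The falls moved together from array to array. In both, control replicate 1 was the highest and control replicate 3 the lowest of the controls. Of the AgNO3 100 mg/kg arrays, replicate 1 was the highest in both. The deviations of the 2 probes from their group means had r = 0.97 over the 15 arrays, beside a median of 0.15 over all pairs of tested probes, the top 10% of which lay above 0.72. Both values come from the same arrays and scaling and are descriptions, and without sequences it is not known whether the clones carry the same transcript.

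The rise with the largest fold change was Ealb_Met_P6_D6_SP6_2090551. Its level was -1.54, -0.88 and -1.39 on control replicates 1, 2 and 3, and 1.19, 0.65 and 2.17 on AgNO3 replicates 1, 2 and 3. All AgNO3 arrays lay above 0 and all control arrays below it. The log2 change was 2.61 ± 0.55 (SE, limma adjusted p = 0.0363), with a 95% interval from 1.42 to 3.79. Control replicate 3 did not measure it, so its level in clean soil is less certain than with AgNO3.

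The next rise, Ealb_Met_P3_G12_SP6_2090418, was measured on all 6 arrays. Its level was 3.26, 4.14 and 3.47 on the control arrays and 5.55, 5.18 and 6.69 on the AgNO3 arrays. The highest control array stood 1.04 log2 units below the lowest AgNO3 array, and those arrays were both replicate 2 on slide 2. The mean rose 4.55-fold, from 3.62 ± 0.46 to 5.81 ± 0.79 (SD, n = 3 each), a log2 change of 2.19 ± 0.45 (SE, limma adjusted p = 0.0363).

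The other 9 rises lay between 2.73-fold and 4.10-fold. Of all 11 rises, 5 were measured on all 3 control arrays, 4 on 2 of them and 2 on only 1, so the fold changes of the last 6 are uncertain on the clean soil side. All 11 had their highest AgNO3 level on replicate 3, as had 44.7% of the 432 compared probes, and 10 of the 11 had their lowest on replicate 2, as had 52.5%. AgNO3 replicate 2 was the brightest of the 6 arrays, and the part of brightness in this order was not tested. With brightness as a covariate all 13 probes passed, among 19 rises and 2 falls. The log2 change there was 2.54 for Ealb_Met_P6_D6_SP6_2090551 and 2.13 for Ealb_Met_P3_G12_SP6_2090418, beside 2.61 and 2.19 as reported.

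The rises shared less of their array-to-array variation than the falls. The 55 pairs among the 11 rises had a median r of 0.57 between deviations from the group means over the 15 arrays, ranging from -0.10 to 0.96. Rises and falls had a median r of -0.068. These values describe probes that share arrays and scaling.

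All 13 probes had their 3 AgNO3 arrays beyond their 3 control arrays, a pattern that 70 of the 432 compared probes showed (16.2%), 51 of them higher with AgNO3 and 19 lower.

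**Figure D2:**
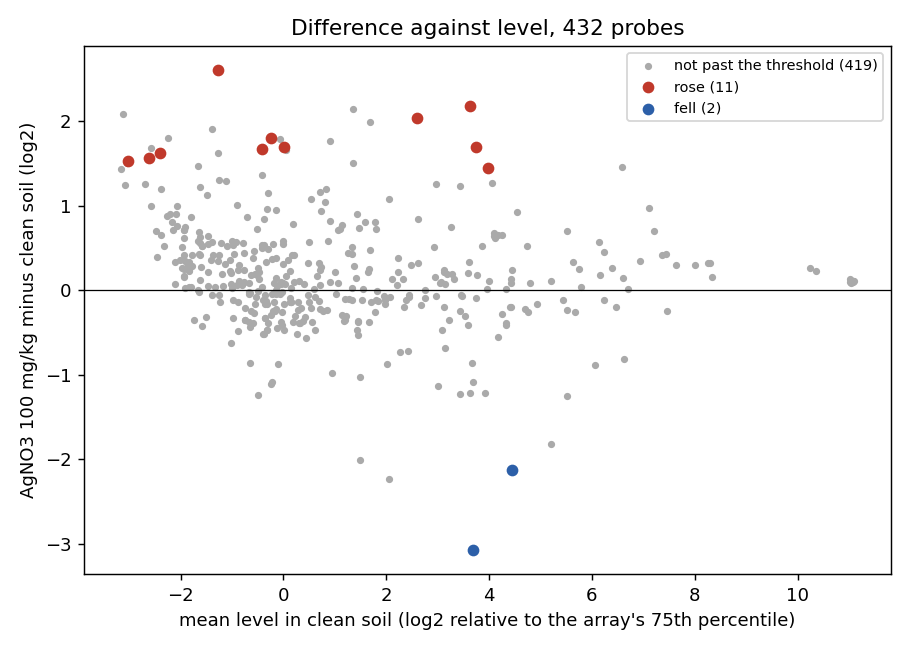
Difference between AgNO3 100 mg/kg and clean soil (log2, y axis) against the mean level in clean soil (log2 relative to the array's 75th percentile, x axis) for the 432 compared probes, with the 11 rises in red, the 2 falls in blue and the other 419 in grey. The rises lie between 1.45 and 2.61 and the falls at -2.13 and -3.08, while most grey points lie near 0.

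Over the 432 compared probes the quartiles of the log2 difference were -0.14 and 0.53 and its median was 0.12. The median size in either direction was 0.33, smaller than the median standard error of 0.45. AgNO3 was higher in 273 probes and lower in 159. Differences larger than 2-fold were seen in 44 probes upwards and 15 downwards, most of which did not pass. The 95% interval of the difference lay wholly within a 2-fold change either way for 91 probes (21.1%) and within a 4-fold change for 337 (78.0%), so for most probes a change of over 2-fold lay inside the interval that 3 arrays a group allow.

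Over the 446 fitted probes the median difference was 0.11. Scaling by the array median gave 0.054, the 75th percentile of probes measured on every array gave -0.039, spike-in scaling gave -0.18 and the authors' deposited values gave 0.29. The balance of rises and falls moved with the scaling, as it did with the filter on dim probes. There were 11 rises and 2 falls as reported, 13 and 1 with the array median, 0 and 2 with the percentile of probes measured on every array, 3 and 0 with spike-in scaling, and 6 and 5 with normexp and quantile normalization. The authors' values gave no call, although 54 probes had an unadjusted p below 0.05 (limma, lowest adjusted p 0.0831).

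Divided into 3 sets of 144 by mean signal over the 15 arrays, the dimmest probes held 3 rises, the middle ones 4 rises, and the brightest 4 rises and both falls. The median difference was 0.25 in the dimmest 144, where only 14 probes were measured on all 6 arrays, 0.071 in the middle and 0.11 in the brightest. The median standard error was 0.46, 0.42 and 0.45 in the same order. The brightest set was measured in full on both sides, so its calls do not rest on signals near background.

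By the first letters of the probe names, whose meaning the files do not give, the 13 changed probes, 3.01% of the 432 compared, fell into 3 of 5 kinds. The unprefixed clones with T7 in the name held 6 rises and both falls among 80 compared probes, and those with SP6 held 2 rises among 33. The Ealb_Met clones held 3 rises among 165. None passed among the 86 contigs or the 68 Ealb_Pest clones, in which 4 and 3 probes had an unadjusted p below 0.05 (limma). Those shares are near the 0.05 expected with no differences. The median log2 difference was 0.18 for the T7 clones, 0.20 for the SP6 clones, 0.16 for Ealb_Met, 0.13 for Ealb_Pest and 0.074 for the contigs, against 0.12 over all 432. No test compared these groups.

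Comparison within slides takes the slide out of each difference. P5_D7_T7_1329838 was lower than the control of its slide by a log2 difference of -3.44 on AgNO3 replicate 1, -3.46 on replicate 2 and -3.06 on replicate 3. The level was below the slide's control by about the same amount each time. P2_B1_T7_1328894 had -2.52, -2.28 and -2.11 in the same order. With slide as a block in the fit of all 15 arrays these were the 2 probes that passed (0.448% of the 446), at an adjusted p of 0.0035 and 0.0195 (limma). With slide as a random block P5_D7_T7_1329838 passed and P2_B1_T7_1328894 did not (limma adjusted p = 0.0345 and 0.0546), and 10 rises passed.

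The rises varied more between arrays of 1 slide. Ealb_Met_P6_D6_SP6_2090551 exceeded the control of its slide by 2.73 on AgNO3 replicate 1, 1.53 on replicate 2 and 3.05 on replicate 3. Ealb_Met_P3_G12_SP6_2090418 did so by 2.29, 1.04 and 2.56. Both had an adjusted p of 0.0781 with slide as a block, which misses the threshold, and of 0.0345 with slide as a random block (limma). The median over the 11 rises was 1.78 on replicate 1, 1.03 on replicate 2 and 2.00 on replicate 3, where the median over the 432 probes was 0.045, -0.12 and 0.078.

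All 11 rises were above the control of their slide on all 3 AgNO3 arrays, as were 71 of the 432 probes (16.4%). Both falls were below it on all 3, as were 83 (19.2%). The groups were apart in all 13 probes, which fixed these signs in advance, so they are no further check. AgNO3 replicates 2 and 3 were set against the same control array here, so the 3 differences are not independent. Within slide 1 alone 2 probes passed in limma, 1 of them among the 13, and within slide 2 none did, where 7 had an unadjusted p below 0.05. Each of these slides held 1 group with more than 1 array, which alone set the spread. It was Ag-NP at 200 mg/kg on slide 1 and AgNO3 at 100 mg/kg on slide 2, and the lone arrays of the other groups were assumed to vary like it. In the 9 arrays of slides 1 and 2 together, which leaves out control replicate 3, 2 probes rose and 3 fell, and 3 of these 5 were among the 13. P5_D7_T7_1329838 had an adjusted p of 0.00879 there, and P2_B1_T7_1328894 and Ealb_Met_P6_D6_SP6_2090551 had 0.0357.

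**Figure D3:**
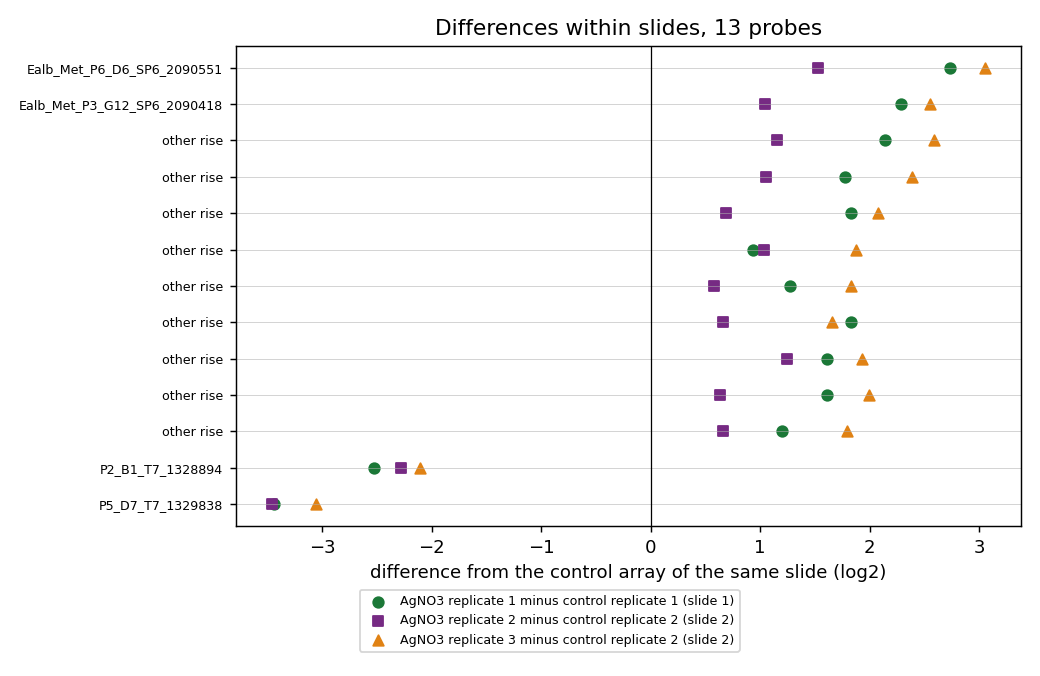
Difference of each AgNO3 100 mg/kg array from the control array of the same slide (log2, x axis) for the 13 probes (rows, ordered by fold change), with replicate 1 on slide 1 and replicates 2 and 3 on slide 2. All points of the 11 rises lie right of 0, with replicate 2 at 0.58 to 1.53. The falls lie left of 0 with their 3 points close together. These sides follow from the groups being apart in every row.

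A group of 3 probes was measured on all 3 AgNO3 arrays and on no control array, and no probe showed the opposite. None of the 3 passed (limma). Ealb_Met_P8_E1_SP6_2090693 was at -1.46, -1.38 and -0.26 on the AgNO3 arrays, and its control signals of -3.20, -3.29 and -2.88 were not well above background. Setting the control side at the lowest signal that counted as well above background on each array, or at the probe's own signal where higher, its mean was at least 2.23-fold higher with AgNO3 (adjusted p = 0.275). The bound is on the means and takes no account of replicate error. The spread of the probe came largely from Ag-NP 100 mg/kg replicate 2, where it stood at 1.17 beside -3.92 and -2.27 on the other arrays of that group. Of 34 alternatives that kept the probe it passed in 2, without that array (adjusted p = 0.0431) and in the 9 arrays of slides 1 and 2 (0.0459), and the adjusted p reached 0.998 in others. The control side of each of these values is at signals not well above background.

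Ealb_Met_P3_D5_SP6_2090362 was at -1.81, -2.50 and -0.87 with AgNO3 and at -3.85, -3.23 and -2.40 in control, at least 1.38-fold higher with AgNO3 (adjusted p = 0.201). The groups overlapped, since control replicate 3 lay above AgNO3 replicate 2. The last of the 3, Ealb_Met_P5_D10_SP6_2090489, chosen after its values were seen, was at least 1.28-fold higher (adjusted p = 0.343), with its groups apart.

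Just outside the threshold lay 3 probes with an adjusted p of 0.0555 (limma), also chosen after their values were seen. P3_B4_SP6_1371433 had a log2 difference of -2.24 ± 0.59 (SE), with control levels of 1.93, 2.57 and 1.66 and AgNO3 levels of -0.76, 0.39 and -0.19. P4_C2_SP6_1371456 had -1.82 ± 0.48, with 6.08, 5.06 and 4.50 in control and 3.72, 2.86 and 3.59 with AgNO3. P5_D1_T7_1329795 had 1.63 ± 0.43 and was above background on 2 of 3 control arrays. In each of them the groups were apart, and just inside the threshold the 12 probes other than P5_D7_T7_1329838 shared an adjusted p of 0.0363.

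The strongest signals were at the limit of the scanner. On all 6 arrays 11 probes were saturated, and 1 more was saturated on some of them. Their signals were capped at that limit before being scaled to each array's brightness. The log2 differences of these probes, 0.086 to 0.13, therefore include the scaling and cannot be read as changes in transcript level. Whether these transcripts changed could not be seen.

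The other silver groups show where the 13 probes stood at the higher concentration and with the nanoparticle form. Comparisons with clean soil share the 3 control arrays, so their values are given side by side and not as separate support. Against clean soil the 11 rises had log2 differences of 1.06 to 2.76 with AgNO3 at 200 mg/kg, with a median of 1.99, beside 1.45 to 2.61 with a median of 1.69 at 100 mg/kg. With Ag-NP they had -0.71 to 1.29 at 100 mg/kg, with a median of 0.27, and 0.36 to 1.80 at 200 mg/kg, with a median of 0.82. The median over all tested probes was -0.21 with AgNO3 at 200 mg/kg, -0.047 with Ag-NP at 100 mg/kg and 0.12 with Ag-NP at 200 mg/kg.

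The level of P5_D7_T7_1329838 was 1.62, 1.24 and 0.95 on the arrays with AgNO3 at 200 mg/kg. It was 3.28, 3.55 and 3.02 on those with Ag-NP at 100 mg/kg, and 3.87, 2.17 and 1.43 on those with Ag-NP at 200 mg/kg. AgNO3 at 200 mg/kg was thus low on all 3 arrays, and Ag-NP at 100 mg/kg lay within the range of the controls on all 3. With Ag-NP at 200 mg/kg, 3.87 lay in the control range, 1.43 in that of AgNO3 at 200 mg/kg and 2.17 between them. Ealb_Met_P6_D6_SP6_2090551 stood at 1.37, 1.19 and 1.92 with AgNO3 at 200 mg/kg, at -2.56, -0.21 and -0.65 with Ag-NP at 100 mg/kg and at -0.056, 0.64 and 1.02 with Ag-NP at 200 mg/kg. In order of group means it was lowest in clean soil (-1.27) and with Ag-NP at 100 mg/kg (-1.14), then came Ag-NP at 200 mg/kg (0.53), and it was highest with AgNO3 at 100 mg/kg (1.34) and at 200 mg/kg (1.49). Clean soil and Ag-NP at 100 mg/kg differed by less than the spread between their arrays, as did the 2 AgNO3 groups, and the arrays of Ag-NP at 200 mg/kg overlapped those of AgNO3 at 100 mg/kg.

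**Figure D4:**
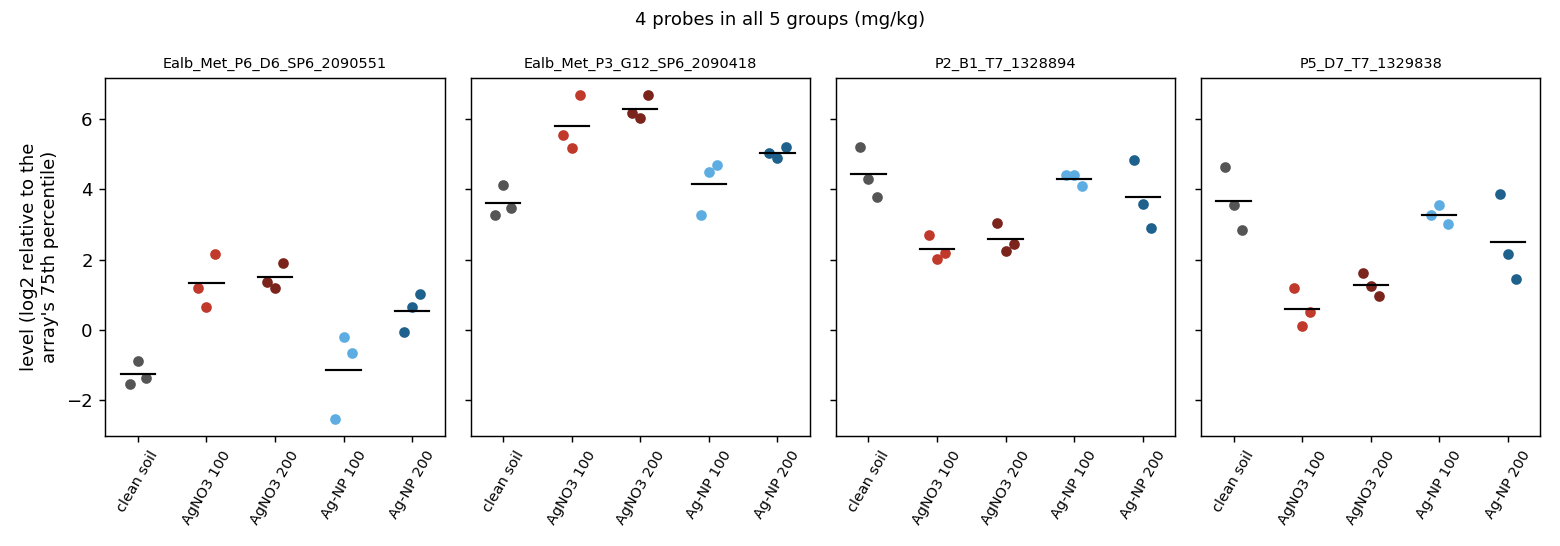
Level of 4 probes (log2 relative to the array's 75th percentile, y axis) on the 3 arrays of each of the 5 groups (x axis), with a bar at the group mean. The AgNO3 groups lie together, Ag-NP at 100 mg/kg lies near clean soil, and for P5_D7_T7_1329838 the Ag-NP 200 mg/kg arrays reach from 1.43 to 3.87.

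Contrasts that leave out the control arrays were tested in the same fit. Between 200 and 100 mg/kg of AgNO3 none of the 446 probes passed (0%), and 88 had an unadjusted p below 0.05 (limma). The 11 rises had log2 differences of -0.50 to 0.49 between the concentrations and the falls had 0.28 and 0.67. For P5_D7_T7_1329838 the 95% interval of the difference was -0.54 to 1.88 and for Ealb_Met_P6_D6_SP6_2090551 it was -1.03 to 1.34, so a difference of over 2-fold between the concentrations lies inside both intervals.

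Between Ag-NP and AgNO3 at the shared concentration of 100 mg/kg 5 probes passed (1.12%, limma), and 3 of them were among the 13. P5_D7_T7_1329838 was 6.42-fold higher with Ag-NP, or 2.68 ± 0.57 on the log2 scale (SE, adjusted p = 0.0315). For Ealb_Met_P6_D6_SP6_2090551, measured on 2 of 3 Ag-NP arrays, Ag-NP minus AgNO3 was -2.48 ± 0.55 (SE, adjusted p = 0.042). P2_B1_T7_1328894 had 2.00 ± 0.48 and an adjusted p of 0.0593, which did not pass, with a 95% interval from 0.99 to 3.02. All 11 rises were lower with Ag-NP, by log2 differences of -2.48 to -0.28 with a median of -1.41, beside a median of -0.15 over all tested probes, and 2 of them passed. The choice of the rises for being high with AgNO3 at 100 mg/kg favours this direction. In the same way the choice of the falls for being low favours higher levels with Ag-NP. All Ag-NP 100 mg/kg arrays lay on slide 3 and no AgNO3 100 mg/kg array did, so slide enters this contrast. With slide as a block P5_D7_T7_1329838 still passed, at 3.52 ± 0.58 (SE, limma adjusted p = 0.02), and Ealb_Met_P6_D6_SP6_2090551 did not, at -2.78 ± 0.79 (adjusted p = 0.279). The call on P5_D7_T7_1329838 was lost in 13 of 31 alternatives, among them the removal of any 1 of the 6 arrays of both groups, where the adjusted p was 0.0578 to 0.151. That on Ealb_Met_P6_D6_SP6_2090551 was lost in 15 of 30, and P2_B1_T7_1328894 passed in 9 of 31. The direction held in all of these, many of which left the difference itself unchanged.

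**Figure D5:**
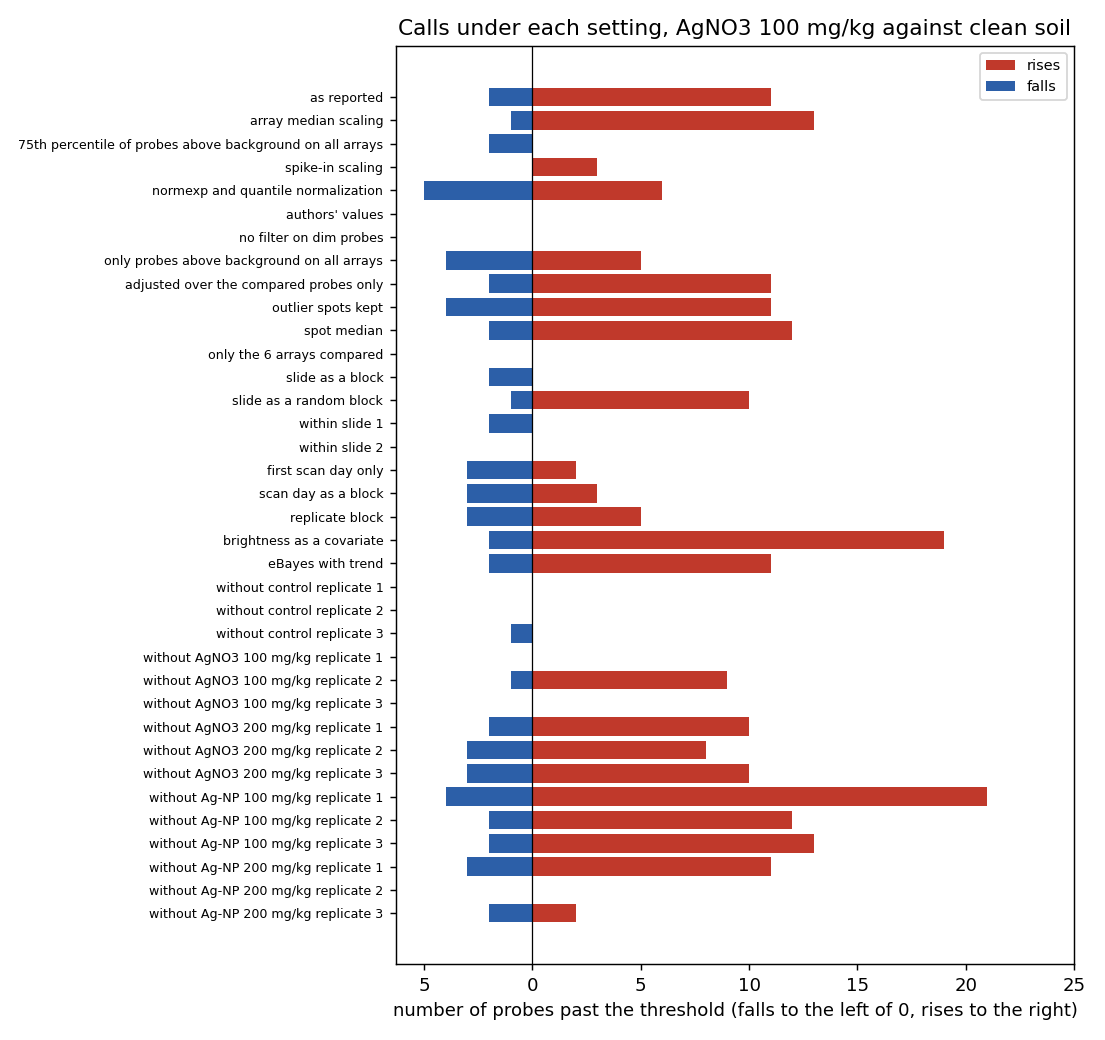
Number of probes past the adjusted threshold for AgNO3 100 mg/kg against clean soil (x axis, falls to the left of 0 and rises to the right) under each of 36 settings (rows). The setting as reported gives 11 rises and 2 falls, and 9 settings give no call. With slide as a block the 2 falls and no rise remain, and with slide as a random block 10 rises and 1 fall remain.

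Across the 35 other settings P5_D7_T7_1329838 was lower with AgNO3 in all 35 and passed in 25, with log2 changes from -3.50 to -1.95. P2_B1_T7_1328894 was lower in all 35 and passed in 20, with changes from -2.52 to -1.74. Ealb_Met_P3_G12_SP6_2090418 was higher in all 35 and passed in 20, with changes from 1.74 to 2.68. Ealb_Met_P6_D6_SP6_2090551 was higher in the 34 settings that kept it and passed in 21, with changes from 0.82 to 3.03. The -1.95 of P5_D7_T7_1329838 and the 0.82 of Ealb_Met_P6_D6_SP6_2090551 came with normexp and quantile normalization. The other settings gave -3.50 to -2.60 and 2.19 to 3.03 for these 2 probes. Many settings left the difference of each probe unchanged, which fixed its direction there. The direction of these 4 probes also held in the settings that changed the difference, while the call did not hold throughout.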

How the data were processed

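Expression was measured on 1-colour Agilent arrays (Cy3). Each array's deposited scanner output gives linear intensity per spot, background-subtracted within the array, from Agilent Feature Extraction 10.5.1.1 per the file headers. The authors' deposited series table holds log2 values, normalized by a method not given in the sources used here. It served as an alternative only, probes without a value on an array being fitted without that array. Control and outlier spots were left out and saturated spots kept. Log2 processed intensity was averaged per probe, minus the array's 75th percentile over 15208 non-control spots, and fitted with limma 3.58.1 in R 4.3.3 (15 arrays, 5 groups, 10 residual degrees of freedom), with summaries in Python 3.11.15. The scripts were tested on simulated data. Normexp (offset 50) used the median spot signal, since the mean is not in the files. Spike-in scaling used 6 spike-in probes. The number of arrays limits the precision.

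Named probes were up to 2 rises and 2 falls of the largest size, with groups apart and the brighter group measured on all 3 arrays, up to 2 each way by smallest p with slide as a block, and up to 2 each way measured in only 1 group. The probes, groups and tests were chosen with earlier results of these data known. Gene lists could not be used without gene names. No clone had probes for both ends, so these were not compared.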

Additional observations from a re-analysis of the deposited data

Results flagged for a closer look

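Of the probes named for AgNO3 at 100 mg/kg, 2 differed between the silver forms at that concentration by a test of the difference itself (limma). The probes were chosen for their values with AgNO3 at 100 mg/kg, and the same AgNO3 arrays enter this test, which favours the directions seen. P5_D7_T7_1329838 was higher with Ag-NP by a log2 difference of 2.68 (adjusted p = 0.0315), and Ealb_Met_P6_D6_SP6_2090551 was lower with Ag-NP by -2.48 (adjusted p = 0.042). With slide as a block the former passed (adjusted p = 0.02) and the latter did not (adjusted p = 0.279). The former lost its call in 13 of 31 alternatives, with spike-in scaling (adjusted p = 0.174), in the authors' values (0.0959) and without any 1 of the 6 arrays of these groups (0.0578 to 0.151) among them, and the latter in 15 of 30. In the former the arrays of the 2 forms did not overlap, at 3.02 to 3.55 with Ag-NP and 0.10 to 1.19 with AgNO3. In the latter Ag-NP replicate 1 stood at -2.56, not well above background, below the other arrays of its group, at -0.65 and -0.21. Without that array the difference was -1.77 (limma adjusted p = 0.127).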

How the results depend on the processing

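The count of 13 changed probes was 2 with the 75th percentile of probes measured on every array. It was 3 when scaled on spike-ins and 0 from the authors' values. It was also 0 without a filter on dim probes. There 59 of 1035 probes had an unadjusted p below 0.05 (limma), beside 51.75 expected with no differences. The count was 9 (5 rises and 4 falls) among the 227 probes measured on every array. It was 0 in the fit of the 6 arrays, 2 with slide as a block, 2 within slide 1, 0 within slide 2, 5 on the first scan day, 6 with scan day as a block and 21 with brightness as a covariate. With slide as a random block it was 11 (10 rises and 1 fall). Leaving out 1 array at a time gave 0 to 25. The first scan day, slide as a random block and adjustment over the 432 probes were chosen after seeing the data. Whether the replicate numbers of the labels pair the arrays is not known. Same-numbered arrays had r = -0.028, -0.083 and 0.70 between deviations from group means, and differently numbered arrays had -0.76 to 0.69. With 3 arrays a group the deviations depend on each other, so these values cannot decide it. With the replicate block 8 probes passed, 7 of them among the 13. Between 200 and 100 mg/kg of AgNO3 the difference of Ealb_Met_P6_D6_SP6_2090551, 0.16 as reported, turned to -0.27 using spike-ins, -0.15 in the authors' values, -0.22 within slide 2, -0.055 on the first scan day and -0.074 with brightness, and ranged from -0.19 to 0.57 without 1 array. That of P2_B1_T7_1328894, 0.28 as reported, turned to -0.026 in the authors' values and -0.15 with spike-in scaling. None of these passed, and the cause was not tested. The difference of 53.7 in probes measured per array was 49.3 counting any spot and 37.0 requiring all spots. Signal over background limits the 155 probes that control replicate 3 did not measure.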
